A study of Drosophila melanogaster with 10 samples.

Results

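The genes described here carry the symbols used for genes of cytosolic ribosomal proteins in Drosophila melanogaster. They were taken as every gene of the deposited expression table whose symbol begins with RpL or RpS followed by a digit or the letter P, with case respected. This rule picked 91 of 15422 genes, 53 of the large-subunit RpL type and 38 of the small-subunit RpS type. No expression value was used to choose them. By role they comprised 42 core genes of the large subunit, 29 core genes of the small subunit, 3 genes of the stalk (RpLP0, RpLP1 and RpLP2) and 3 genes whose proteins are made as fusions to ubiquitin or a ubiquitin-like domain (RpS27A, RpL40 and RpS30). The other 14 are extra gene copies or "-like" relatives of a main gene, and the naming rule does not show that each -like relative encodes a ribosomal protein. The naming rule leaves out sta and Rack1, which also encode small-subunit proteins.

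The small subunit of the ribosome reads the mRNA and the large subunit joins amino acids into protein, while the stalk recruits the factors that drive elongation. Most ribosomal proteins are needed in equal amounts, and their genes are transcribed at high rates into short mRNAs. In Drosophila, loss of a single copy of many of these genes slows growth and gives the Minute phenotype. Growing and dividing cells raise ribosome production, so a forced stop of the cell cycle poses the question whether these mRNAs move with it.

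The samples were whole embryos at stage 15 to 16, kept at 25 °C, in 5 genotypes with 2 independent samples each. Wild type dacapo (dap here) was overexpressed in the first genotype. The other 3 overexpression genotypes carried dacapo[CRL4], dacapo[PCNA] or dacapo[CDI], called dapCRL4, dapPCNA and dapCDI here, and each is labelled as encoding a stabilized Dacapo protein. The control carried the driver alone (pros-Gal4/+), and every genotype carried pros-Gal4. Dacapo inhibits cyclin-dependent kinases and is related to mammalian p21 and p27. The pros-Gal4 driver acts in a subset of cells, mostly of the nervous system, whereas RNA came from the whole embryo, so fewer cells of a type and less RNA per cell cannot be told apart. All 4 overexpression genotypes were set against the same 2 control libraries, and p-values measure only the spread between these samples.

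The values are log2 RPKM (reads scaled by transcript length and by the mapped reads of the library) from polyA RNA. Sequencing gave between 20.7 and 43.4 megareads a sample, per the labels, and the values of genes with few reads place the depth of a library between 17.05 and 25.75 megareads counted. The dacapo transcript itself, endogenous and transgenic together, stood at 85.8 and 83.4 RPKM in dap embryos, 81.0 and 75.7 RPKM in dapCRL4 embryos, 70.7 and 73.3 RPKM in dapPCNA embryos and 170.2 and 156 RPKM in dapCDI embryos, against 70.5 and 70.7 RPKM in control embryos. The dapPCNA label is thus not checked by this transcript. Summed levels of the neuronal markers elav, brp and Syt1 were 114 and 75.9 RPKM in dap embryos, 121 and 102 RPKM in dapCRL4 embryos, 114 and 105 RPKM in dapPCNA embryos and 63.0 and 96.0 RPKM in dapCDI embryos, against 138 and 130 RPKM in control embryos. None of the 3 neuronal markers was at 0 in any library, and their part in the results below was not tested.

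The ribosomal protein genes were among the most abundant mRNAs of the embryo in every genotype. They held 34.5 ± 2.44% of the summed RPKM in dap embryos, 32.5 ± 0.674% in dapCRL4 embryos, 32.7 ± 0.0912% in dapPCNA embryos and 33.5 ± 1.43% in dapCDI embryos, against 32.8 ± 0.728% in control embryos (SD, n = 2 each). Averaged over the 8 overexpression libraries the share was 33.3%, against 32.8% in the 2 control libraries, with p = 0.689 in an exact two-sided permutation test over the 45 possible splits, where the smallest attainable p is 0.0222. Weighted by exon length, which turns RPKM back toward reads, the share was 17.0 and 19.7% in dap embryos, 15.9 and 16.9% in dapCRL4, 16.3 and 16.4% in dapPCNA embryos and 17.4 and 18.0% in dapCDI embryos, against 15.8 and 16.5% in control embryos. On that measure both dap and both dapCDI libraries lay above both controls, and the mean over the 8 overexpression libraries was 17.2%, against 16.1% in control embryos (exact two-sided permutation p = 0.267). Among the 100 most abundant genes of each library, 76 were ribosomal protein genes.

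Levels within the ribosome were close to each other. Of the 77 core, stalk and fusion genes, 75 lay within 2-fold of their own median in every library, and that median ranged from 3769 to 4787 RPKM over the libraries. The median of the large-subunit core divided by that of the small-subunit core ranged from 0.954 to 1.01. RpL41, which encodes a very short basic peptide of the large subunit, was the most abundant member. It stood at 11217 and 14123 RPKM in dap embryos, 10346.5 and 10236 RPKM in dapCRL4 embryos, 9750.3 and 10878 RPKM in dapPCNA embryos and 10900.5 and 12090 RPKM in dapCDI embryos, against 10192 and 10556 RPKM in control embryos. Only the second dap and second dapCDI libraries stand clearly apart from the others for this gene. RpL27A, RpL3, RpS23 and RpL10 followed, at control means of 6603 ± 169, 5891 ± 269, 5551 ± 126 and 5305 ± 48.1 RPKM (SD, n = 2), and these 5 members ranked 2, 3, 7, 8 and 10 among all genes.

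**Figure D1:**
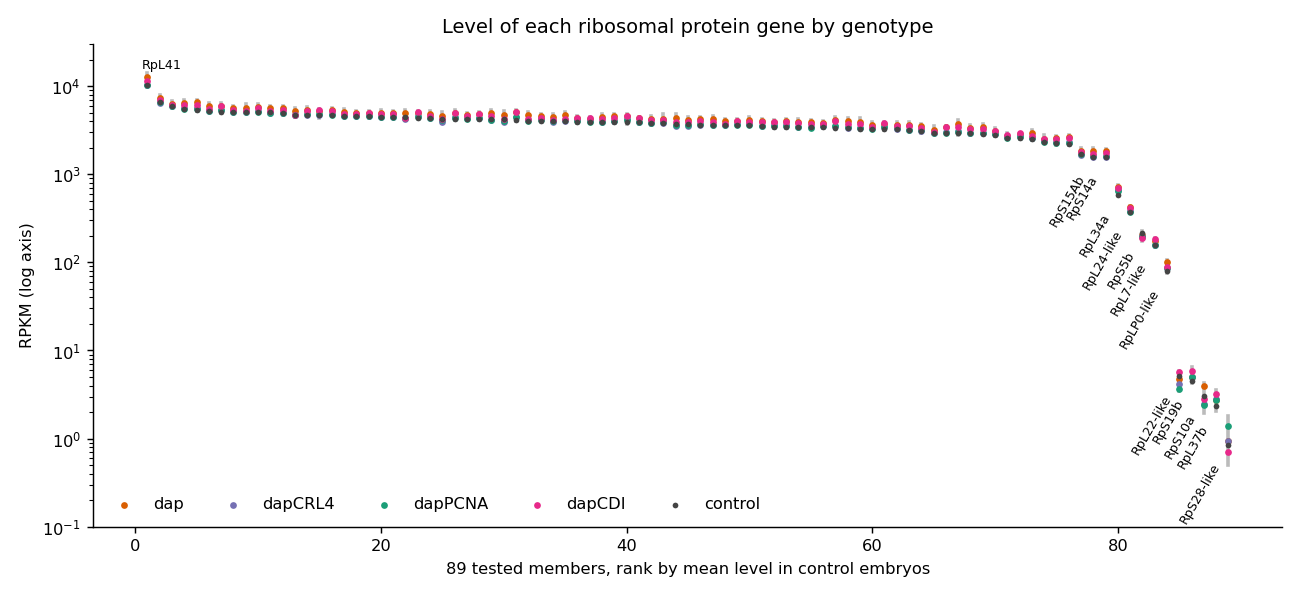
Mean RPKM (log axis) of the 89 tested ribosomal protein genes, ranked by their level in control embryos, with a dot for the mean of each genotype (n = 2) and a grey bar from the lowest to the highest of the 10 libraries. The core genes form a plateau between 1598 and 14123 RPKM, and the extra copies at the right fall off in steps, down to RpS28-like near 1 RPKM.

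Of the 91 members, 89 reached 1 RPKM in at least 2 libraries and were tested. RpL10Aa was listed at 0 in every library except the second control library, at 0.0608 RPKM. RpS28a was listed at 0 in the first dap, first dapCRL4, both dapCDI and the first control libraries, and reached at most 0.735 RPKM, in the second dap library. The set is otherwise deeply covered: RpL39, the shortest core gene, had an estimated 17848 reads in its lowest library, whereas RpL22-like had 75.8 and RpS28-like had 4.73.

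Compared with control embryos, a small number of ribosomal protein genes rose in dap and dapCDI embryos in the values as deposited, and none was called in dapCRL4 or dapPCNA embryos. A gene was called where limma's moderated test gave a Benjamini-Hochberg adjusted p below 0.05 over all 10396 genes tested. In dap embryos 4 of the 89 members rose and none fell, where 8.53% of all genes tested were called higher and 3.27% lower. In dapCDI embryos 2 rose and none fell, where 4.73% of all genes were called higher and 2.83% lower. No member was called in dapCRL4 embryos (1.03% of all genes higher and 0.423% lower) or in dapPCNA embryos (0.741% higher and 0.558% lower). At an unadjusted p under 0.05 in limma the members numbered 41 in dap embryos, 1 in dapCRL4 embryos, 2 in dapPCNA embryos and 15 in dapCDI embryos, where 32.8%, 16.1%, 11.3% and 31.2% of all genes passed that threshold. The called shares of the members, 4 of 89 and 2 of 89, are thus smaller than those of all genes. At the unadjusted threshold the share of members was larger than that of all genes in dap embryos, with 41 of 89. It was smaller in dapCRL4, dapPCNA and dapCDI embryos.

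In dap and dapCDI embryos most members were nevertheless higher than in the control by a small amount. The median log2 change of the members was 0.18 in dap embryos (87 of 89 above 0), 0.01 in dapCRL4 embryos (61 of 89), 0.02 in dapPCNA embryos (60 of 89) and 0.13 in dapCDI embryos (83 of 89), relative to the control. The medians over all genes were 0.06, 0.04, 0.00 and 0.04 in the same order. Both dap libraries lay above both control libraries for 70 members, where 39.4% of all genes did so, and both dapCDI libraries for 67 members, where 32.5% did. The corresponding counts were 7 members in dapCRL4 embryos (33.5% of all genes) and 10 in dapPCNA embryos (25.1%). The members share their libraries, so these counts describe a shift of the set within a library rather than 89 separate events.

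That shift rested strongly on single libraries. The second dap library lay 0.21 above the 10-library mean in the median over the members, whereas the first dap library lay 0.01 above it. For 85 of 89 members the second dap library was the higher of the pair, by a median of 0.20 on the log2 scale. That direction was not particular to dap. The second library was the higher for 86 members in dapCRL4, 50 in dapPCNA, 66 in dapCDI and 84 in control embryos. The medians there were 0.08, 0.006, 0.05 and 0.07. The pooled replicate SD of the member median was 0.0735. Without the first dap library 41 members were called higher in dap embryos and the median change was 0.28, whereas without the second dap library none was called and the median was 0.08. Without either one of the control libraries the count in dap embryos was 0, without any single dapCRL4 or dapPCNA library it was 1, and without either dapCDI library it was 6. In dapCDI embryos the count was 4 without the first dap library, 3 without the second, 2 without the second dapCDI library and 0 without any other library. Scaling every library to the same summed RPKM moved the median of all genes in dap embryos by −0.11, and the members then had a median of 0.07 in dap embryos, −0.01 in dapCRL4, 0.00 in dapPCNA embryos and 0.04 in dapCDI embryos. Under quantile normalization the medians were 0.01 in dap embryos, 0.00 in dapCRL4, 0.00 in dapPCNA embryos and 0.00 in dapCDI embryos. Quantile normalization gives every library the same distribution, and 76 of the 100 most abundant genes of each library were members. A joint shift of the set is thus largely removed by that setting in advance. Scaling to a sum that includes the members moves every gene of a library by the same amount. It removes part of the members' change but leaves their distance to other genes. The members' median exceeded that of all genes by 0.12 in dap and 0.09 in dapCDI embryos, before and after scaling. Neither setting can show whether the shift holds.

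**Figure D2:**
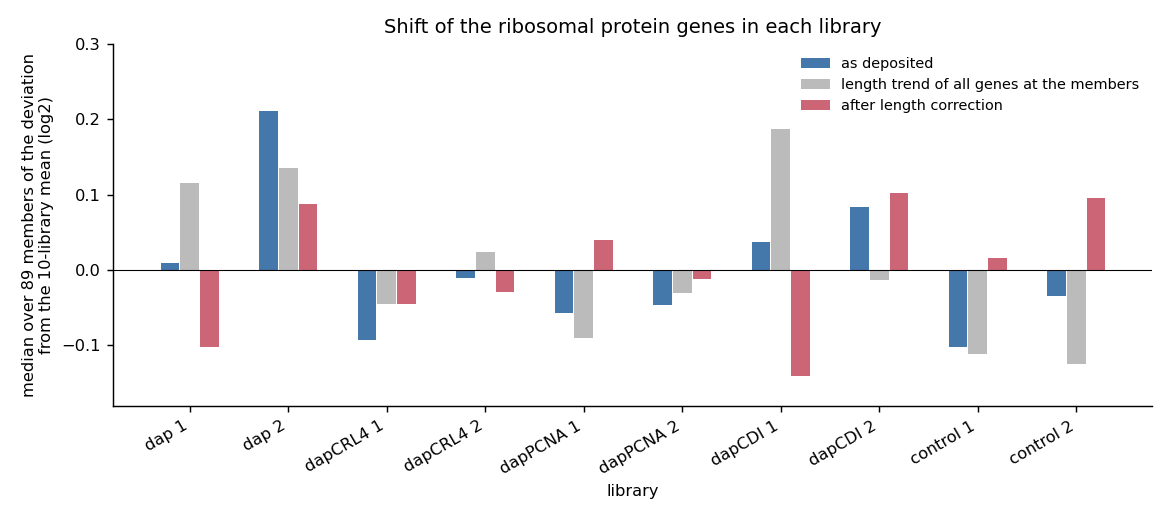
Median over the 89 tested members of the deviation from the 10-library mean (log2), for each library, as deposited (blue), as given by the length trend of all genes at the members' exon lengths (grey) and after that trend was subtracted (red). The second dap library is highest as deposited, at 0.21, and within the dap and dapCDI pairs the corrected medians lie on opposite sides of 0.

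Ribosomal protein mRNAs are short, and in these libraries the deposited values moved with transcript length. The median length of the union of annotated exons was 903 bases over the tested members, with a range of 288 to 3835 bases, against 2006.5 bases over all genes tested. When all genes tested were divided by length into 5 equal bins, the shortest bin held 58 members and the others held 27, 3, 1 and 0 with rising length. Across all genes Spearman's correlation of the log2 change with exon length was −0.57 in dap embryos, −0.30 in dapCRL4, −0.22 in dapPCNA embryos and −0.55 in dapCDI embryos. This correlation is across 10274 genes with a known length, which share the same libraries and are not independent replicates.

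Read against that trend, the median member was not higher than other genes of its length in any genotype. A smooth curve of the deviation from the 10-library mean on log2 exon length was subtracted in each library. After this correction no member was called in any genotype, where limma called 1.86% of all genes higher and 1.5% lower in dap embryos, 1.28% and 0.847% in dapCRL4 embryos, 1.04% and 0.983% in dapPCNA embryos and 2.06% and 1.31% in dapCDI embryos. At an unadjusted p under 0.05 the members then numbered 2, 1, 1 and 2 in the same order, where 22.1%, 17.5%, 14.9% and 22.7% of all genes passed. The median change of the members was −0.07 in dap (14 of 89 above 0), −0.09 in dapCRL4 (8 of 89), −0.04 in dapPCNA (18 of 89) and −0.07 in dapCDI embryos (18 of 89), where the median of all genes was 0.00 in each. None of the 4 medians exceeded the pooled replicate SD of 0.102 on this scale. That SD is pooled over all genotypes, of which the dap and dapCDI pairs were the widest apart, so it is wide for dapCRL4 embryos. As deposited, the medians of 0.18 in dap and 0.13 in dapCDI embryos exceeded the SD of 0.0735 on that scale.

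**Figure D3:**
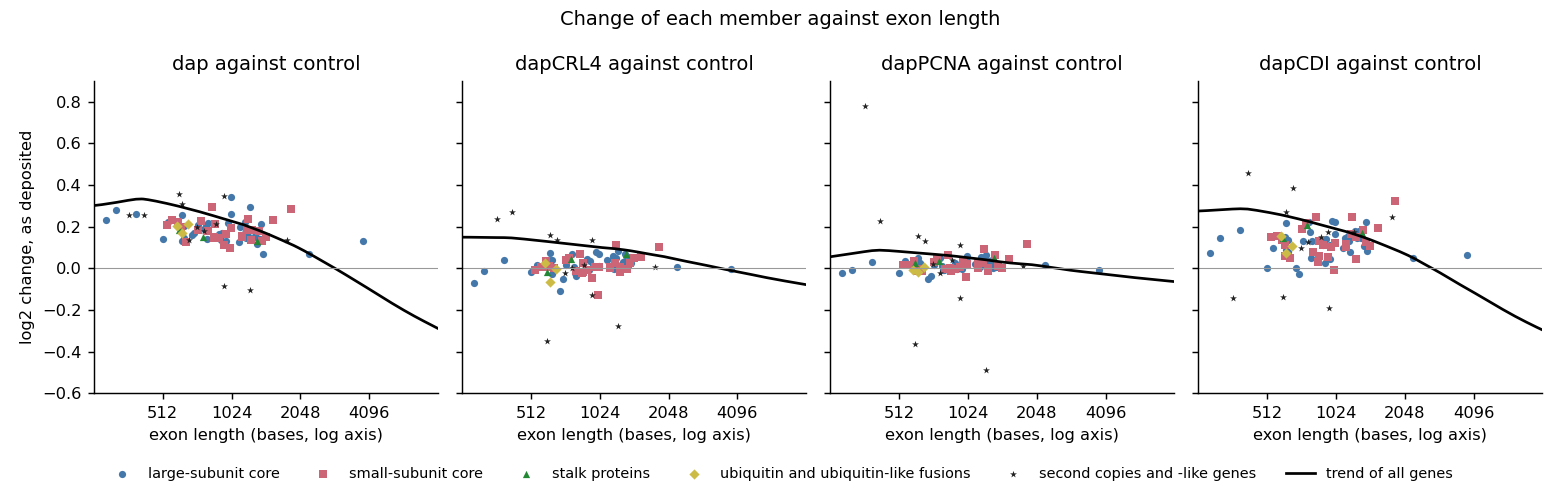
Log2 change as deposited (vertical axis) of each tested member against its exon length in bases (log axis), for each overexpression genotype against control, with the trend of all genes as a black line. In dap and dapCDI embryos the trend falls with length and most members lie on or below it.

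The corrected values also differed within pairs. The first and second dap libraries had corrected member medians of −0.10 and 0.09, and the dapCDI libraries −0.14 and 0.10. The dapCRL4 libraries had −0.04 and −0.03 and the dapPCNA libraries 0.04 and −0.01, against 0.02 and 0.10 in the control libraries. Only the dapCRL4 pair lay wholly below the control pair in these medians. In dapCRL4 embryos 60 of 89 members had both corrected values below both control values, where 26.4% of all genes did, against 8 members in dap (26.7%), 17 in dapPCNA (24.1%) and 6 in dapCDI embryos (24.8%). Leaving out the second dap library gave a corrected median of −0.16 in dap embryos and leaving out the first gave 0.03. Leaving out the second dapCDI library gave −0.19 in dapCDI embryos, with 4 members called lower, and leaving out the first gave 0.05 with none called.

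**Figure D4:**
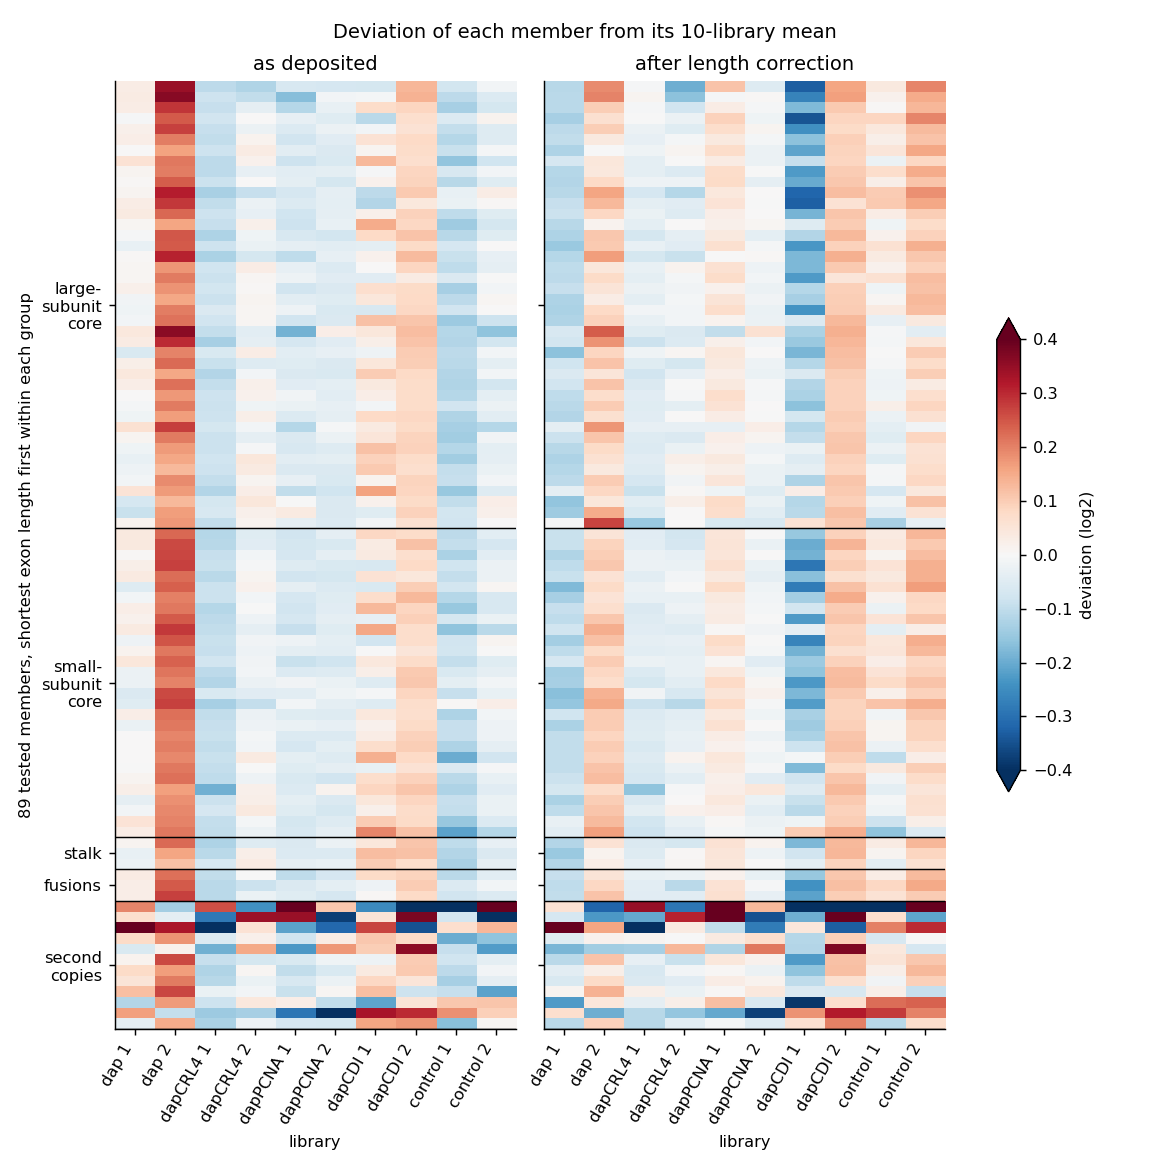
Deviation of each of the 89 tested members from its 10-library mean (log2, red above and blue below), as deposited on the left and after length correction on the right, with members grouped by role and ordered by exon length within a group. As deposited every core gene of the second dap library is red, at 0.13 or more, whereas the first dapCDI library mixes both colours within the core, from −0.12 to 0.16 in the large and from −0.08 to 0.19 in the small subunit.

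The core genes differed little among themselves in these changes. Among the 77 core, stalk and fusion genes the SD of the deposited log2 change was 0.0517 in dap embryos, 0.0425 in dapCRL4, 0.0288 in dapPCNA embryos and 0.0657 in dapCDI embryos. Both subunits had like medians: the median change of the large-subunit core was 0.17, 0.02, 0.02 and 0.13, and that of the small-subunit core 0.18, 0.01, 0.01 and 0.12, in dap, dapCRL4, dapPCNA and dapCDI embryos relative to the control. After length correction the medians were −0.06, −0.09, −0.03 and −0.06 for the large subunit and −0.06, −0.10, −0.04 and −0.08 for the small subunit.

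Among the core genes the deposited change ran with length in the direction seen over all genes in dap embryos, and in the opposite direction in the other 3 genotypes. Spearman's correlation with exon length over these 77 genes, which share the same libraries, was −0.31 in dap embryos, 0.32 in dapCRL4, 0.30 in dapPCNA embryos and 0.15 in dapCDI embryos. In dap embryos the 20 shortest core genes (288 to 659 bases) had a median change of 0.20 and the 20 longest (1203 to 3835 bases) one of 0.15, and in dapCDI embryos the medians were 0.12 and 0.16. After correction the shortest had −0.10 and the longest −0.01 in dap embryos, and −0.14 and 0.01 in dapCDI embryos. In dapCRL4 embryos these medians were −0.12 and −0.04, and in dapPCNA embryos −0.07 and −0.004. The corrected correlation with length was 0.62, 0.69, 0.72 and 0.71 in dap, dapCRL4, dapPCNA and dapCDI embryos. Corrected values of the shorter core genes thus lie below those of the longer ones. The corrected medians and counts of the whole set carry that limit, as does the corrected value of a single short gene.

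The stalk and the fusion genes had differences of the size of those of the core. RpLP0, the base of the stalk, averaged 2826 ± 197 RPKM in dap embryos and 2899 ± 46.4 RPKM in dapCDI embryos, against 2581 ± 119 RPKM in control embryos (SD, n = 2 each). RpLP1 averaged 4885 ± 446 and 5064 ± 16.7 RPKM in dap and dapCDI embryos, against 4387 ± 128 RPKM in control embryos, and RpLP2 averaged 5371 ± 569 and 5211 ± 172 RPKM, against 4710 ± 156 RPKM. None of the 3 passed the test in any genotype, and their median change was 0.15, 0.04, 0.03 and 0.17 in dap, dapCRL4, dapPCNA and dapCDI embryos.

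RpS27A and RpL40 each yield a free ubiquitin beside the ribosomal protein, and RpS30 is made behind a ubiquitin-like domain. RpS27A averaged 5839 ± 540 RPKM in dap embryos, 5157 ± 239 RPKM in dapCRL4 embryos, 5037 ± 85.0 RPKM in dapPCNA embryos and 5651 ± 35.7 RPKM in dapCDI embryos, against 5067 ± 163 RPKM in control embryos. RpL40 averaged 4227 ± 509 RPKM in dap embryos against 3631 ± 39.4 RPKM in control embryos, and RpS30 4166 ± 451 RPKM against 3697 ± 75.2 RPKM. None of the 3 passed the test, and the median change of the group was 0.20, 0.00, −0.01 and 0.11 in dap, dapCRL4, dapPCNA and dapCDI embryos.

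The 4 called genes were RpL10, RpL34a, RpLP0-like and RpS26, of which RpL34a and RpS26 were called in both dap and dapCDI embryos. RpL10, a protein at the core of the large subunit that joins late in its assembly, lies on chromosome 3L at 23093190 to 23095471 (BDGP6). It stood at 6028 and 7006 RPKM in dap embryos, 5511 and 5737 RPKM in dapCRL4 embryos, 5338 and 5758 RPKM in dapPCNA embryos and 5930 and 6103 RPKM in dapCDI embryos, against 5271 and 5339 RPKM in control embryos. Both dap libraries lay above both controls, and the second dap library was the highest of the 10. RpL10 rose by 0.29 on the log2 scale in dap embryos (95% interval 0.11 to 0.48, limma adjusted p = 0.0496). After length correction the difference was 0.10, with adjusted p = 0.63.

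RpS26, a small-subunit protein at the exit of the mRNA channel, lies on 2L at 18441335 to 18443277. It stood at 4693 and 5327 RPKM in dap embryos, 4301 and 4527 RPKM in dapCRL4 embryos, 4399 and 4490.2 RPKM in dapPCNA embryos and 5265 and 4996 RPKM in dapCDI embryos, against 3965 and 4249 RPKM in control embryos. All 8 overexpression libraries lay above both controls, with the second dap and first dapCDI libraries the highest. RpS26 rose by 0.28 in dap embryos (95% interval 0.11 to 0.46, adjusted p = 0.0479) and by 0.32 in dapCDI embryos (0.14 to 0.50, adjusted p = 0.0471), by limma. After length correction the differences were 0.17 (adjusted p = 0.291) and 0.23 (0.04 to 0.43, adjusted p = 0.153), which in both genotypes stood among the 3 highest of the members. Its annotated exons span 1864 bases, of which 342 are coding, so its length depends on which transcript ends the authors counted.

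RpL34a is the lower expressed of a pair of genes for the large-subunit protein L34 and lies on 3R at 26058420 to 26059267. It stood at 698 and 750.5 RPKM in dap embryos, 637 and 671 RPKM in dapCRL4 embryos, 626 and 676 RPKM in dapPCNA embryos and 714 and 698 RPKM in dapCDI embryos, against 577 and 592 RPKM in control embryos. All 8 overexpression libraries were above both controls. RpL34a rose by 0.31 in dap embryos (95% interval 0.16 to 0.46, limma adjusted p = 0.0243) and by 0.27 in dapCDI embryos (0.12 to 0.42, adjusted p = 0.0453). The differences of 0.16 in dapCRL4 and 0.16 in dapPCNA embryos did not pass (adjusted p = 0.272 and 0.416). After length correction 0.01 remained in dap embryos (−0.14 to 0.17, adjusted p = 0.93) and 0.02 in dapCDI embryos (adjusted p = 0.897).

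RpLP0-like is related to the stalk protein P0, and its yeast relative Mrt4 acts in assembly of the large subunit. It lies on 2R at 10098518 to 10099590, where its exons overlap those of Jra on the other strand, and whether reads were counted by strand is not given in the sources used here. It stood at 95.7 and 106 RPKM in dap embryos, 86.5 and 87.4 RPKM in dapCRL4 embryos, 82.8 and 88.4 RPKM in dapPCNA embryos and 95.6 and 83.2 RPKM in dapCDI embryos, against 82.6 and 75.8 RPKM in control embryos. All 8 overexpression libraries lay above both controls, with the widest gap in the dap pair. The first dapPCNA library, at 82.8 RPKM, barely exceeded the first control library, at 82.6 RPKM. The share of all genes with this pattern, also seen for RpS26 and RpL34a, is not given here. RpLP0-like rose by 0.35 in dap embryos (95% interval 0.15 to 0.54, limma adjusted p = 0.036), and after length correction the difference was 0.11 (adjusted p = 0.323).

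These calls sat close to the threshold. Over the 20 alternative settings and left-out libraries, the limma adjusted p in dap embryos ranged from 0.0133 to 0.961 for RpL34a (11 of 20 below 0.05), from 0.0231 to 0.649 for RpL10 (6 of 20), from 0.0133 to 0.366 for RpLP0-like (6 of 20) and from 0.0299 to 0.299 for RpS26 (5 of 20). In dapCDI embryos it ranged from 0.028 to 0.935 for RpL34a (4 of 20) and from 0.0288 to 0.229 for RpS26 (6 of 20). Without the second dap library none of the 4 was called in dap embryos, at adjusted p = 0.138, 0.219, 0.204 and 0.215 for RpL34a, RpL10, RpLP0-like and RpS26. Without the first control library the adjusted p were 0.116, 0.186, 0.0898 and 0.225, and without the second control library 0.127, 0.192, 0.197 and 0.155, in the same order. In dapCDI embryos, leaving out the first dapCDI library gave adjusted p = 0.187 for RpL34a and 0.229 for RpS26, leaving out the first control gave 0.204 and 0.222, and leaving out the second control gave 0.148 and 0.138. The calls of RpL10 and RpS26 in dap embryos, and both calls in dapCDI embryos, were also lost at p from 0.0663 to 0.0801 when any dapCRL4 or dapPCNA library was left out, and that of RpLP0-like at p from 0.0548 to 0.0566.

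At the edges of the corrected set stood genes without a call. RpL5, which carries 5S ribosomal RNA into the large subunit and is the longest member at 3835 bases, stood at 5306 and 5925 RPKM in dap embryos against 4984 and 5258 RPKM in control embryos. Its difference in dap embryos was 0.13 as deposited and 0.21 after correction (−0.02 to 0.45, limma adjusted p = 0.27). RpL38, a small peripheral protein of the large subunit, stood at 3295 and 4111 RPKM in dap embryos against 2955 and 2859 RPKM in control embryos, a difference of 0.34 (0.10 to 0.58, adjusted p = 0.0631) that was 0.11 after correction. RpL36A lay at the low edge, with 4762 and 5659 RPKM in dap embryos and 4435 and 5003 RPKM in dapCDI embryos, against 4602 and 4824 RPKM in control embryos. Its corrected differences were −0.18 in dap and −0.27 in dapCDI embryos (−0.57 to 0.03, adjusted p = 0.272), while its deposited ones were 0.14 and 0.00. The exons of RpL36A overlap those of CCDC53 on the other strand.

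Set against wild type dap, the stabilized forms showed no called member. The median change was −0.16 in dapCRL4, −0.16 in dapPCNA embryos and −0.05 in dapCDI embryos relative to dap embryos, where limma called 0.164%, 1.33% and 0.144% of all genes in either direction. At an unadjusted p under 0.05 in limma 34, 30 and 0 members differed from dap, where 14.7%, 24.0% and 10.4% of all genes did. After length correction the medians were −0.03, 0.02 and −0.01, again with no call, where 0.37%, 0.818% and 0.38% of all genes were called. Without the second dap library the deposited medians against dap were between −0.07 and 0.05, and without the first between −0.27 and −0.15. Among the 3 stabilized forms limma's moderated F test called no member as deposited (0.135% of all genes; 4 members and 12.2% of all genes at an unadjusted p under 0.05) or after correction (0.204% of all genes; 1 member and 10.1% of all genes at an unadjusted p under 0.05).

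The extra copies and -like genes took a narrow share of the set in every library but differed widely from pair to pair. Together they gave between 1.47% and 1.52% of the summed RPKM of the members in every library. A pair with a -like gene need not hold genes for the same protein. Within a pair the share of the extra copy ranged over the libraries from 47.8 to 49.8% for RpS15Ab, from 37.6 to 39.3% for RpS14a, from 20.1 to 22.9% for RpL34a and from 10.6 to 11.3% for RpL24-like. RpS14a and RpS14b lie side by side on X, and RpS15Aa and RpS15Ab have coding lengths of 390 bases each. How the authors' counting split reads that fit both copies of a pair is not given in the sources used here, so these shares are uncertain. RpS5b, RpL7-like and RpLP0-like gave between 2.77 and 7.31% of their pairs, and RpL22-like, RpS19b, RpS10a, RpL37b and RpS28-like less than 0.25%. Of the 12 tested copies and -like genes 2 rose in dap and 1 in dapCDI embryos, as given above, where 8.53% and 4.73% of all genes were called higher. None was called after correction, where 1.86% and 2.06% of all genes were called higher. Whether these genes differ from all genes was not tested.

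**Figure D5:**
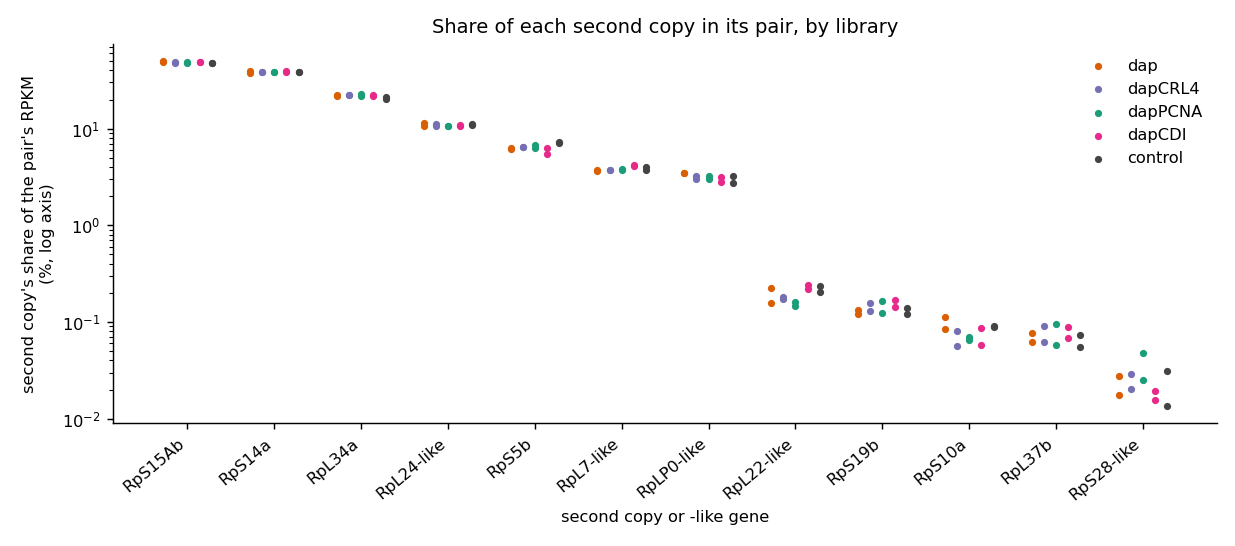
Share of each extra copy or -like gene in the summed RPKM of its pair (%, log axis), with a dot for each library, coloured by genotype. The pairs differ widely among each other, with RpL34a lowest and RpS5b highest in the 2 control libraries, and the low copy RpL22-like has means of 0.155% in dapPCNA and 0.232% in dapCDI embryos.

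RpL34a and RpS5b had pair shares in which the controls stood apart. The RpL34a share was 22.5 and 21.8% in dap embryos, 22.0 and 22.0% in dapCRL4, 21.8 and 22.9% in dapPCNA embryos and 22.3 and 21.8% in dapCDI embryos, against 21.1 and 20.1% in control embryos. The share of RpS5b, whose mRNA is enriched in the female germline, was 6.09 and 6.37% in dap embryos, 6.44 and 6.50% in dapCRL4, 6.70 and 6.26% in dapPCNA embryos and 5.44 and 6.28% in dapCDI embryos, against 7.31 and 7.03% in control embryos. All 8 overexpression libraries thus lay above both controls for RpL34a and below both for RpS5b. These pairs were named because their controls stood apart, and the share of all genes with such a pattern is not given here. These shares use genes of unlike length (621 bases for RpL34a and 927 bases for RpL34b, 951 bases for RpS5b and 1386 bases for RpS5a), and no test was run on them.

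RpS5b itself did not pass the test. It stood at 185 and 226 RPKM in dap embryos, 189 and 206 RPKM in dapCRL4 embryos, 204 and 188 RPKM in dapPCNA embryos and 173 and 208 RPKM in dapCDI embryos, against 216 and 217 RPKM in control embryos. The second dap library was above both controls. The corrected differences were −0.32 in dap (limma adjusted p = 0.22), −0.23 in dapCRL4, −0.20 in dapPCNA embryos and −0.39 in dapCDI embryos (−0.70 to −0.07, adjusted p = 0.144), each among the 3 lowest members. Summed germ cell markers stood at 15.5 and 13.8 RPKM in dap embryos, 15.6 and 14.8 RPKM in dapCRL4, 15.9 and 15.9 RPKM in dapPCNA embryos and 15.6 and 13.6 RPKM in dapCDI embryos, against 13.1 and 12.3 RPKM in control embryos. Of these 5 markers vas and aub were above both controls in all 8 overexpression libraries, nos, bgcn and piwi overlapped the controls, and none was at 0. Their part in the RpS5b values was not tested.

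RpL22-like, a relative of RpL22 known from the testis and the eye, had the lowest corrected value in dapPCNA embryos. It stood at 5.18 and 4.32 RPKM in dap embryos, 4.18 and 4.21 RPKM in dapCRL4, 3.78 and 3.48 RPKM in dapPCNA embryos and 5.81 and 5.68 RPKM in dapCDI embryos, against 5.25 and 4.93 RPKM in control embryos. The dapPCNA and dapCRL4 pairs lay below the controls and the dapCDI pair above them. The difference in dapPCNA embryos was −0.49 (−0.79 to −0.19, limma adjusted p = 0.151), and −0.53 after correction (adjusted p = 0.0911), and it did not pass under any of the 20 alternatives (adjusted p from 0.0843 to 0.662). Testis markers summed to between 1.58 and 3.04 RPKM over all libraries.

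The remaining low copies were too weakly covered to order. RpS10a stood at 4.30 and 3.59 RPKM in dap embryos, 1.94 and 2.98 RPKM in dapCRL4, 2.47 and 2.30 RPKM in dapPCNA embryos and 3.46 and 2.25 RPKM in dapCDI embryos, against 3.0 and 3.14 RPKM in control embryos. Its dap pair lay above the controls, its dapCRL4 and dapPCNA pairs below them, and its dapCDI pair on both sides, with no call. RpS19b stood between 4.29 and 6.45 RPKM over all libraries. RpL37b had the highest corrected value in dapCRL4 embryos, 0.12, with 2.24 and 3.46 RPKM, against 2.59 and 2.05 RPKM in control embryos. RpS28-like had the highest in dapPCNA embryos, 0.70 (−0.45 to 1.85), and the lowest in dapCDI embryos, −0.43. It stood between 0.504 and 1.82 RPKM over all libraries, and the intervals of both differences include 0.

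Other parts of the translation machinery gave few calls after length correction. Of 26 translation initiation factors 2 rose and 1 fell in dap embryos as deposited, where 8.53% of all genes were called higher and 3.27% lower. In dapCDI embryos 1 fell, where 2.83% of all genes were called lower. The fallen gene was pAbp, the cytoplasmic poly(A)-binding protein, at 843 ± 76.8 RPKM in dap and 832.5 ± 172 RPKM in dapCDI embryos, against 1135 ± 12.6 RPKM in control embryos (SD, n = 2 each; limma adjusted p = 0.0482 and 0.049). With 1 library left out, the pAbp call in dap embryos held only without either dapCDI library and otherwise had an adjusted p from 0.0587 without the first dap library to 0.25 without the second. The call in dapCDI embryos held only without the second dapCDI library and otherwise had an adjusted p from 0.0548 without the first dap library to 0.235 without the first dapCDI library. Both were also lost without the filter on low values (0.1667 and 0.1676), without the mean-variance trend (0.1068 and 0.1122) and under quantile normalization (0.0635 and 0.0527), and the dapCDI call under median centring (0.0542). Of 13 elongation and termination factors 1 rose in dap embryos, where 8.53% of all genes were called higher. Neither list had a call after correction. The list medians as deposited were 0.08 and 0.04 in dap embryos, −0.02 and −0.02 in dapCRL4, −0.03 and −0.02 in dapPCNA embryos and 0.02 and −0.02 in dapCDI embryos, for initiation and for elongation.

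Genes for building ribosomes gave calls that in part held after length correction. Of 60 assembly and nucleolar factors 9 rose in dap and 5 in dapCDI embryos as deposited, where 8.53% and 4.73% of all genes were called higher, with list medians of 0.17, 0.18, 0.10 and 0.16 in dap, dapCRL4, dapPCNA and dapCDI embryos. After correction 1 rose in dap, 2 in dapCRL4, 2 in dapPCNA embryos and 2 in dapCDI embryos, where 1.86%, 1.28%, 1.04% and 2.06% of all genes were called higher, with medians of 0.08, 0.12, 0.08 and 0.09. Of 9 genes of RNA polymerase I, which transcribes ribosomal RNA, 2 rose in dap and 1 in dapCDI embryos as deposited (8.53% and 4.73% of all genes higher). After correction 1 rose in each (1.86% and 2.06% of all genes higher). The difference between these lists and the ribosomal proteins was not tested.

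Of these lists, 3 genes were called both as deposited and after correction in the same genotype. The gene l[2]37Cg, annotated as the polymerase subunit Polr1D on 2L, stood at 35.4 and 35.7 RPKM in dap embryos, 28.5 and 32.3 RPKM in dapCRL4, 28.2 and 27.2 RPKM in dapPCNA embryos and 41.7 and 31.6 RPKM in dapCDI embryos, against 23.5 and 22.3 RPKM in control embryos. All 8 overexpression libraries lay above both controls, and the share of all genes with this pattern is not given here. It rose by 0.64 in dap and 0.67 in dapCDI embryos (limma adjusted p = 0.0189 and 0.022), and by 0.37 and 0.44 after correction (adjusted p = 0.0372 and 0.0246). The calls were lost without either control library (adjusted p from 0.0676 to 0.123), without the second dap library in dap embryos (0.12) and without the first dapCDI library in dapCDI embryos (0.072). Both were also lost without the filter on low values (0.0845 and 0.102) and without the mean-variance trend (0.0596 and 0.0652). With length correction and a replicate block both held (limma adjusted p = 0.0443 and 0.0316).

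The gene ns3, annotated as Ns3 on X, is a GTPase gene of the nucleostemin family. It stood at 37.2 and 35.6 RPKM in dap embryos, 33.9 and 35.1 RPKM in dapCRL4, 32.0 and 34.0 RPKM in dapPCNA embryos and 37.8 and 33.9 RPKM in dapCDI embryos, against 28.9 and 28.3 RPKM in control embryos. It rose by 0.35 in dap and 0.32 in dapCDI embryos (limma adjusted p = 0.0268 and 0.0449), and by 0.27 and 0.27 after correction (adjusted p = 0.032 and 0.0329). The adjusted p over the alternatives ranged from 0.00974 to 0.154 in dap and from 0.00964 to 0.203 in dapCDI embryos, with both calls lost when either control library was left out (0.0993 to 0.177), the dap call when either dap library was left out (0.0676 and 0.12) and the dapCDI call when the first dapCDI or any dapCRL4 or dapPCNA library was left out (0.0667 to 0.203). Both were also lost without the filter on low values, after scaling to the same summed RPKM and without the mean-variance trend (0.0612 to 0.103). With length correction and a replicate block the dap call held (limma adjusted p = 0.0475) and the dapCDI call was lost (0.0546).

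CG11859, annotated as RIOK2, a kinase that in yeast and human matures the small subunit, was the most even of these genes. It stood at 30.9 and 30.3 RPKM in dap embryos, 29.8 and 30.5 RPKM in dapCRL4, 29.8 and 30.4 RPKM in dapPCNA embryos and 31.4 and 29.8 RPKM in dapCDI embryos, against 24.6 and 23.8 RPKM in control embryos. No overexpression library came near the controls. CG11859 rose by 0.34 in dap and 0.34 in dapCDI embryos as deposited (limma adjusted p = 0.021 and 0.0305), while the differences of 0.32 in dapCRL4 and 0.32 in dapPCNA embryos did not pass (adjusted p = 0.0609 and 0.0699). After correction it rose by 0.25 in dapCRL4, 0.30 in dapPCNA embryos and 0.24 in dapCDI embryos (adjusted p = 0.0425, 0.0227 and 0.0418), and the 0.21 in dap embryos did not pass (0.0604). The deposited calls were lost without either control library (adjusted p from 0.0797 to 0.143), without the second dap library in dap embryos (0.107), and without the first dapCDI (0.125) or any dapCRL4 or dapPCNA library (0.0543 to 0.0582) in dapCDI embryos. Both were also lost after scaling to the same summed RPKM (0.0819 and 0.0748), and the dapCDI call without the mean-variance trend (0.0544). With length correction and a replicate block CG11859 was not called in dapCDI embryos (limma adjusted p = 0.0668). Alternatives for its corrected calls in dapCRL4 and dapPCNA embryos are not given here.

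Of 21 known regulators of growth and of ribosomal protein genes 6 fell in dap embryos as deposited, where 3.27% of all genes were called lower. The list median was −0.18 in dap embryos, and −0.10, −0.07 and −0.12 in dapCRL4, dapPCNA and dapCDI embryos without a call. The second dap library lay low, with a list median of −0.21 relative to the 10-library mean, and the first lay at −0.01, against 0.12 and 0.08 in the control libraries. The length trend of all genes at this list was −0.15 in the second dap library and 0.01 in the first, against 0.09 and 0.07 in the control libraries. After correction the list median was −0.06 in each dap library, against 0.09 and 0.04 in the control libraries. The growth regulator dm, the fly Myc gene, averaged 20.7 ± 7.05 RPKM in dap embryos against 34.2 ± 0.308 RPKM in control embryos, a fall of 0.77 on the log2 scale (limma adjusted p = 0.0441). The gene larp, whose human relative binds mRNAs of ribosomal proteins, averaged 85.3 ± 24.2 RPKM in dap against 160 ± 11.1 RPKM in control embryos (adjusted p = 0.0239), and Trf2, a factor that acts at promoters of ribosomal protein genes, 20.4 ± 4.84 RPKM against 33.1 ± 1.22 RPKM (adjusted p = 0.0278). These calls were lost without the second dap library (adjusted p = 0.233 for dm, 0.153 for larp and 0.1665 for Trf2) and without the first control library (0.1465, 0.1104 and 0.1202) or the second (0.1813, 0.114 and 0.1354). All 3 were also lost without the filter on low values (0.1685, 0.1212 and 0.1243) and without the mean-variance trend (0.1002, 0.0732 and 0.0758). The dm call was also lost without any 1 of the dapCRL4 and dapPCNA libraries (0.06035 to 0.06205). After length correction the differences were −0.45 for dm, −0.62 for larp and −0.37 for Trf2 (limma adjusted p = 0.0967, 0.0633 and 0.05095). The only call of the list after correction was Max, the partner of Myc, lower by 0.25 to 0.29 in each of the 4 genotypes (limma adjusted p from 0.0227 to 0.0375). In dap, dapCRL4, dapPCNA and dapCDI embryos 1.5%, 0.847%, 0.983% and 1.31% of all genes were then called lower. As deposited Max was not called in any genotype. It averaged 124 ± 3.30, 118 ± 5.47, 111 ± 1.40 and 122 ± 13.7 RPKM in the same order, against 132 ± 4.95 RPKM in control embryos (SD, n = 2 each). The Max calls were lost without either control library, with adjusted p from 0.06455 to 0.1742 over the 4 genotypes. They were also lost in dap embryos without either dap library (0.08706 and 0.08999), in dapPCNA embryos without either dapPCNA library (0.112 and 0.1677), and in dapCDI embryos without the first dapCDI library (0.05825) or either dapPCNA library (0.05254 and 0.05212). In dapCRL4 embryos, among the left-out libraries, the Max call held only without 1 of the dapCDI libraries, and otherwise had an adjusted p from 0.05058 without the first dap library to 0.1915 without the first dapCRL4 library. These regulators were named after their values were seen.

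The mitochondrial ribosomal proteins, which serve the separate ribosome of the mitochondrion, had calls in the values as deposited. Of 73 such genes 35 rose in dap and 22 in dapCDI embryos, where 8.53% and 4.73% of all genes were called higher, with medians of 0.35, 0.23, 0.15 and 0.32 in dap, dapCRL4, dapPCNA and dapCDI embryos, and after correction none was called, with medians of 0.09, 0.12, 0.09 and 0.12. Their corrected medians were above 0 where those of the cytosolic set were below it, in each of the 4 genotypes, and no difference between these sets was tested. The cytosolic proteins outside the naming rule, sta and Rack1, were not called in any genotype, with a median of 0.14, −0.01, −0.03 and 0.11 in dap, dapCRL4, dapPCNA and dapCDI embryos as deposited.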

How the data were processed

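PolyA RNA of 10 whole-embryo samples was sequenced in single reads 50 bases long, per the labels. The authors deposited 1 log2 RPKM value per gene and library, on build BDGP6 per the submitters' processing notes. Not given in the sources used here are the aligner, the counter, the gene lengths and the handling of strand. Where a library had no read of a gene the table holds a floor value, described as listed at 0. RPKM values in the text are 2 raised to the deposited value.

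The 10396 genes reaching 1 RPKM in 2 or more libraries were fitted in limma 3.58.1 under R 4.3.3 with a mean-variance trend and 1 mean per genotype over all 10 libraries (prior df 4.73). Tests were two-sided with Benjamini-Hochberg adjustment over all genes of a comparison, and a gene was called below 0.05. Fold changes are differences of deposited log2 values with no pseudocount, and 95% intervals come from the same fit. For the length correction, a lowess curve (span 0.3) of each library's deviation from the 10-library mean on log2 union-exon length was subtracted for the 10274 genes with a length, and the fit was repeated. The procedure was run on simulated data with independent noise per gene and a length trend added to the second library of every genotype. That trend was the same in all genotypes. The run therefore does not cover a length trend that differs between genotypes, or a shift shared by the genes of a library. Exon lengths, positions and current names come from the BDGP6 annotation given as reference, and the lengths may differ from those the authors divided by. Symbols of 89 members were current, and RpL37a and RpL37b are older names of RpL37-1 and RpL37-2.

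Counted reads were estimated from the values of genes with few reads and only describe depth. Python 3.11.15 was used for the rest. Samples were grouped by the genotype in the labels, and each overexpression genotype was set against the control and each stabilized form against dap. The members were taken by the naming rule alone. That rule, the lists and the tests were set with earlier results of these data known. Members named are the 3 highest and 3 lowest after correction in any genotype, the 5 most and 5 least abundant, those of copy pairs, stalk and fusion genes, and up to 3 genes per other list called both ways. Alternatives were log2(RPKM + 1), no filter, 3 rescalings, no trend, a trend fitted without the members, a replicate block, and leaving out each library, with the corrected leave-outs added after seeing the data. No sequences are shown.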

Additional observations from a re-analysis of the deposited data

How the results depend on the processing

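Among the alternatives for the deposited values, the count of members called higher in dap embryos was 0 without the filter on low values, after scaling to equal summed RPKM, without the mean-variance trend, and under length correction, also with the trend fitted without the members or with a replicate block. It was 2 under median centring. For dapCDI the count was 0 in these settings and under the replicate block alone, except 1 after scaling and 1 under quantile normalization. The median change in dap was 0.072 after scaling, 0.011 under quantile normalization, −0.070 under length correction with or without the block, and −0.073 with the trend without members. In dapCRL4 it was −0.091 and −0.10 under the last 2 settings. In dapCDI it was 0.037, 0.0034, −0.073 and −0.074 in the order given for dap. Against dap, the median of dapCRL4 was −0.081, −0.011, −0.031 and −0.032 and that of dapPCNA −0.069, −0.012, 0.017 and 0.020, in the same order. By construction, scaling moves every gene of a library by the same amount. It lowers the members' own change in part and leaves their distance to other genes. Quantile normalization largely removes a joint shift of the set.

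Leaving out 1 library gave 0 to 41 members in dap (median 0.077 to 0.28), 0 to 4 in dapCDI (0.10 to 0.17), and 0 in dapCRL4 (−0.031 to 0.059) and dapPCNA (−0.018 to 0.053). Against dap the medians were −0.27 to −0.068 for dapCRL4, −0.26 to −0.058 for dapPCNA and −0.15 to 0.050 for dapCDI. The corrected medians were −0.16 to 0.030 for dap, −0.14 to −0.044 for dapCRL4, −0.081 to 0.0054 for dapPCNA and −0.19 to 0.049 for dapCDI, with 0 to 4 members called in dapCDI. The member share of summed RPKM was 32.8 to 36.3% for dap, 32.0 to 33.0% for dapCRL4, 32.6 to 32.7% for dapPCNA, 32.5 to 34.5% for dapCDI and 32.2 to 33.3% for the control.

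Of the results for single named genes and comparisons under an alternative, 534 kept direction and call, 129 lost a call, 2 gained one and 15 changed sign. The signs changed in dap for RpL36A (−0.18 under the 3 length corrections, −0.033 under quantile normalization) and RpL5 (−0.024, quantile), and in dapCDI for RpL5 (−0.032 after scaling, −0.037 quantile). The others changed with 1 library of the pair or of the control left out, over a range of −0.23 to 0.025 for RpL22-like and −0.23 to 0.061 for RpS5b in dap, −0.45 to 0.17 for RpS10a and −0.77 to 0.48 for RpS28-like in dapCDI, −0.044 to 0.58 for RpL37b and −0.39 to 0.86 for RpS28-like in dapCRL4 (with −0.015 between them), and −0.14 to 0.59 for RpL37b in dapPCNA. Across all genes tested, same-numbered samples did not deviate together (correlations from −0.053 to 0.089), so the numbers are not taken as pairs. Those correlations do not cover the members alone. In dap, dapCRL4, dapPCNA, dapCDI and control embryos the second library was the higher for 85, 86, 50, 66 and 84 of 89 members as deposited. After length correction the counts were 85, 58, 8, 87 and 84. Under the replicate block alone RpL10, RpL34a, RpS26 and RpL38 were called in dap, where RpLP0-like was lost (adjusted p = 0.0515) and RpL38 gained (0.049, and 0.0277 without the first dap library). The block also lost CG11859 (0.0513) and ns3 (0.064) in dapCDI. With length correction the block called larp in dap (0.00449) and did not call CG11859 (0.0668) or ns3 (0.0546) in dapCDI. The cause of these differences was not tested. With 2 libraries per genotype the tests resolve only differences beyond the spread between pairs, and the low-abundance copies rest on few reads.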
